A study of Mus musculus with 33 samples.

Results

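The 292 regions described here, called basal regions below, were those where p53 was found in Arf-/- Eµ-myc lymphoma cells even when no activating agent had been given. They were chosen by presence alone. The peaks of 26 p53 chromatin immunoprecipitation (ChIP-seq) peak lists were merged wherever at least 1 bp was shared. Regions were kept when they held a peak in all 12 lists of tumours 5 to 7 that were untreated or given water (H2O), DMSO or (+)-Nutlin. That left 292 of 18927 merged regions. Presence and peak width in those 12 lists, the unactivated lists, are therefore given as a description, and the tests below concern other lists, of which some come from the same tumours.

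The study mapped p53 binding after p53 function was restored or activated in B cell lymphomas from lymph nodes of C57/Bl6 Eµ-myc mice, in which Myc is driven in B cells. Each tumour number stands for 1 lymphoma, and the cells of a lymphoma were divided among the treatments. Tumour cells were pressed from lymph nodes and not purified further, so binding in more cells and stronger binding per cell cannot be told apart.

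Tumours 1 to 4 carried Trp53(KI/delta), a knock-in (KI) allele over a deleted one. For 2 h their cells received ethanol (EtOH) as solvent or 4-hydroxytamoxifen (OHT) at 100 nM, which gave 4 lists of each kind. Tumours 5 to 7, the Arf tumours, were Arf-/- Trp53+/+. Their cells were left untreated or were given, for 3 h, doxorubicin at 1 µM, either form of Nutlin at 5 µM, or the solvents water and DMSO alone, which gave 3 lists of each kind. The 6 doxorubicin and (-)-Nutlin lists are called the activated Arf lists. All groups share the Eµ-myc background.

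The transcription factor p53 binds DNA as a tetramer at response elements in promoters, introns and intergenic sequence, and switches on genes of cell cycle arrest, cell death and repair. Mdm2 binds p53, blocks it and marks it for degradation, and is itself made under p53 control. Arf, which Myc induces, holds Mdm2 back, and lymphomas that lack Arf often keep Trp53 intact. Doxorubicin damages DNA and thereby stabilises p53, and (-)-Nutlin occupies the pocket of Mdm2 in which p53 sits, while its mirror image, (+)-Nutlin, serves as the inactive control compound.

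The lists held 116 to 11346 peaks. They give positions without a score, so width stood in for peak strength, as the width of the widest peak of a region in a list. The EtOH lists and the unactivated lists of tumours 6 and 7 contained peaks down to 52 bp, whereas the smallest peak of any other list was 278 bp. All lists of tumour 5 were of this wider kind. Widths in bp were compared within a kind of list, and a region also has a percentile among all regions of its list. Lists of the same kind still differed, with median peaks of 417 to 552 bp in the OHT, doxorubicin and (-)-Nutlin lists. Where widths of both kinds stand side by side below, treatment and list kind cannot be told apart. Genome positions are mm9.

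Basal regions were long and their peaks were wide where the list kind allowed it. The merged regions had a median length of 1737.5 bp, from 720 to 6232 bp, beside 567 bp for all merged regions. Without activation, the median peak width over the 292 regions was 1016 bp in untreated, 1106.5 bp in water, 959 bp in DMSO and 1043.5 bp in (+)-Nutlin cells of tumour 5. In tumour 6 the same medians were 546, 464.5, 307.5 and 317 bp, and in tumour 7 they were 238, 277.5, 293.5 and 272.5 bp. Tumour 5 thus had the highest median in every unactivated condition, but its lists were of the wide kind and those of tumours 6 and 7 narrow. Tumour and list kind cannot be told apart there. Between the narrow lists, each median of tumour 6 lay above those of tumour 7.

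The 292 regions were far from uniform in the 12 lists that chose them. In 52 regions (17.8%) the peak was at least 500 bp wide in all 12 lists, and in 126 (43.2%) it was at least 200 bp wide in all 12. At the other end, 22 regions (7.53%) were held by a peak under 60 bp in at least 1 list. In the 8 unactivated lists of tumours 6 and 7, 59 regions were split into several peaks in all 8 and 26 were a single peak in all 8. The box plot of widths shows this spread for each list.

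**Figure D1:**
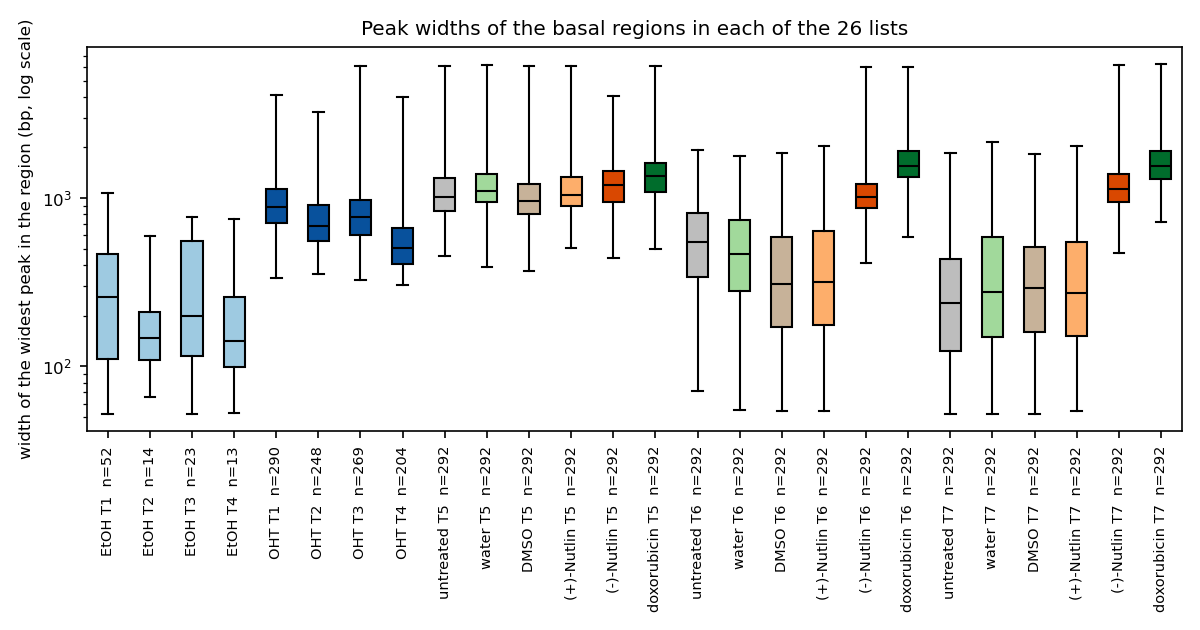
Width in bp, on a log axis, of the widest peak of each basal region in each of the 26 lists, with n the number of basal regions called in that list. Boxes span the quartiles with the median as a line, and whiskers run from the lowest to the highest value. Medians in doxorubicin lists (1350.5 to 1561 bp) lie above those in (-)-Nutlin lists (1016.5 to 1202 bp), and those in OHT lists (507 to 890 bp) lie below both.

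Among the unactivated lists, the order of basal regions by width was most alike within a tumour. Across the 292 regions, Spearman's rho between unactivated lists ran from 0.817 to 0.919 for lists of the same tumour. It ran from 0.672 to 0.764 between tumours 6 and 7, and from 0.485 to 0.646 between tumour 5 and the other two, which also differ in list kind. After activation the ranges overlapped, with 0.705 to 0.898 between doxorubicin and (-)-Nutlin of the same tumour. Between tumours rho ran from 0.604 to 0.785 for doxorubicin lists and from 0.762 to 0.878 for (-)-Nutlin lists. Pairs of the same tumour differ in agent here, and pairs between tumours do not. These values describe regions that share the same libraries, and carry no test.

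A threshold of 12 lists leaves near misses. There were 61 regions with a peak in 11 of the 12, of which 45 lacked it in a tumour 7 list, 16 in a tumour 6 list and 0 in a tumour 5 list. The untreated list of tumour 7 alone accounted for 20. The widest of the 61 in the OHT, doxorubicin and (-)-Nutlin lists lay at chr5:107865137-107867391, missed only untreated tumour 7, and was called in 4 OHT and 3 EtOH lists. The next, at chr9:57324503-57326113, missed only the water list of tumour 7 and was called in 2 OHT and 0 EtOH lists.

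After activation all 292 basal regions were called in all 6 doxorubicin and (-)-Nutlin lists. Of all 17090 regions with a peak in an Arf list, 18.8% were called in all 6. That share depended on the number of unactivated lists with a peak. It was 4.95% for merged regions with 0 such lists, 92.3% with 6, 100% with 9, 98.2% with 10 and 96.7% with 11. Presence in all 6 activated lists therefore hardly separates basal regions from those with 9 to 11 unactivated lists. The 6 activated lists come from the same 3 tumours as the rule, so the count describes those tumours. In median width the basal regions stood at percentiles 97.9, 97.3 and 97.8 of the doxorubicin lists of tumours 5, 6 and 7. In the (-)-Nutlin lists they stood at 97.9, 97.8 and 96.6. Basal regions thus lay among the widest peaks of every activated Arf list.

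Merging by overlap places the peaks of a region near each other, so their positions are given as a description, without values for other regions. For each basal region the midpoint of its widest peak in each list was set against the median of these midpoints in the 6 activated lists. The median distance over the 18 Arf lists was 66.5 bp in the median region. It was within 100 bp in 218 regions (74.7%), less than the 250 bp average fragment. These medians include the 6 lists that set the reference. In the single unactivated lists of tumours 6 and 7, 43.5% to 51.4% of basal regions lay within 100 bp. In EtOH lists it was 26.1% to 42.9% of the basal regions called. In 269 regions (92.1%) the spans of all 18 Arf lists had at least 1 bp in common. Medians by list were 52.1 bp for untreated tumour 5, 94.9 bp for untreated tumour 6 and 121 bp for untreated tumour 7, beside 54.1, 53.9, 52.3 and 63.5 bp in the OHT lists of tumours 1 to 4.

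In the KI tumours, which the rule did not use, most basal regions had a p53 peak with OHT and few with EtOH. OHT lists held 290, 248, 269 and 204 of the 292 in tumours 1 to 4, which is 99.3%, 84.9%, 92.1% and 69.9%. EtOH lists held 52, 14, 23 and 13, which is 17.8%, 4.79%, 7.88% and 4.45%. Every OHT value lay above every EtOH value. The means were 86.6% ± 12.6 (SD, n = 4) with OHT and 8.73% ± 6.24 (SD, n = 4) with EtOH, a difference of 77.8 percentage points. A two-sided exact permutation test over lists gave p = 0.0286, which is the smallest value possible with 4 against 4. With tumours paired, the exact sign-change p was 0.125, also the smallest possible. OHT lists were wide and EtOH lists narrow, so agent and list kind cannot be told apart.

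Region by region, 202 basal regions were called in all 4 OHT lists, 39 in 3, 36 in 2, 14 in 1 and 1 in none. All 4 OHT lists had a peak in 8.61% of all merged regions. A subset of 152 basal regions (52.1%) was called in every OHT list but never with EtOH, and so had a peak in each of the 18 Arf and 4 OHT lists. The same pattern held in 9.39% of the 12710 regions with a peak in a KI list. Fisher's exact test per region, adjusted by Benjamini-Hochberg over those 12710 regions, called 0 regions (0%), and its lowest adjusted p was 0.304. The lowest unadjusted Fisher p that 4 against 4 lists allow is 0.0286, so the adjusted test had little room to make a call. That p was reached by 152 basal regions of 1194 in all, which are the regions of the pattern just counted. Without tumour 1, 2, 3 or 4 the basal count was between 154 and 187, while the share over all regions became 18.2%, 16.2%, 12.1% and 14.1%.

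Absence from OHT lists fell mainly on tumour 4. Of the 90 basal regions missing from at least 1 OHT list, 37 were missing from tumour 4 alone, 28 from tumours 2 and 4, 13 from tumours 2, 3 and 4, and 8 from tumours 3 and 4. Tumour 2 alone was missing in 2. The OHT list of tumour 4 was not short, with 9738 peaks against 4102 in tumour 1, which held all but 2 basal regions. Between these lists, the longer held fewer basal regions. This did not hold for the other lists, as tumour 3 with 10084 peaks held 269 and tumour 2 with 3597 peaks held 248.

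**Figure D2:**
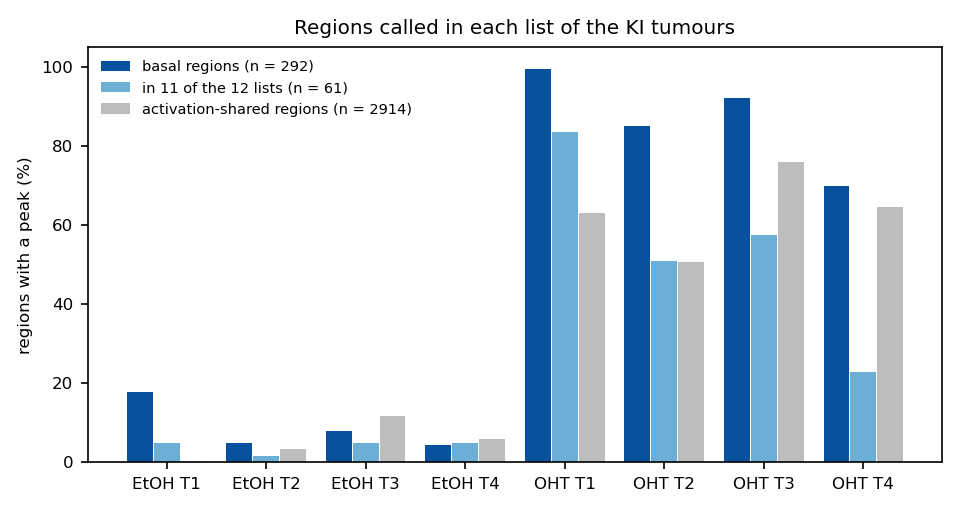
Percent of regions with a peak in each EtOH and OHT list of KI tumours 1 to 4, for the 292 basal regions, the 61 regions called in 11 of the 12 unactivated lists, and the 2914 activation-shared regions, which are the other regions called in all 6 activated Arf lists. Each bar is 1 list. Basal regions reach 99.3%, 84.9%, 92.1% and 69.9% in the OHT lists, above both other sets in each tumour.

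Basal regions were next set beside the 2914 other regions called in all 6 activated Arf lists, here called activation-shared. In the OHT lists of tumours 1 to 4, 63.0%, 50.7%, 76.0% and 64.5% of activation-shared regions had a peak. Basal regions were higher in 4 of 4 tumours, by 36.3, 34.3, 16.1 and 5.38 percentage points. The mean difference of 23.0 points had an exact sign-change p of 0.125 (two-sided, n = 4), which is the smallest p that 4 tumours allow. In all 4 OHT lists together, 69.2% of basal regions and 30.5% of activation-shared regions were called. Activation-shared regions were also shorter, with a median length of 903 bp, and width was not matched. Length again depends in part on the number of lists with a peak.

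Within OHT lists basal regions had a higher median width than activation-shared regions in tumours 1 to 3 and a lower one in tumour 4. Their median width percentiles were 93.0, 88.3, 90.5 and 65.0 in tumours 1 to 4, against 56.8, 57.2, 72.7 and 75.1. The mean difference was 18.7 percentile points, with an exact sign-change p of 0.25 (two-sided, n = 4). Tumour 4 therefore stood apart in both measures, with the fewest basal regions and the lowest rank of those it had.

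The share of regions called in every OHT list did not rise evenly with the number of unactivated lists. Regions with a peak in 0 of the 12 lists were called in all 4 OHT lists in 3.58% of cases, and those with 1 list in 16.4%. From 2 to 11 lists the share lay between 23.0% and 39.3%, with 23.0% at 11 lists, and at 12 it was 69.2%. The bar chart by number of unactivated lists shows the higher share at 12. As 12 is the highest count possible, that bar gathers regions that pass the calling limit by any margin. The step there therefore cannot show whether the relation is gradual. Width differed too, with a median mean width percentile of 83.4 at 11 lists and 90.2 at 12. The 61 regions with 11 lists had 83.6%, 50.8%, 57.4% and 23.0% in the OHT lists of tumours 1 to 4. Basal regions were higher in 4 of 4 tumours by a mean of 32.9 points, with an exact sign-change p of 0.125, the smallest possible, in a comparison added after the values were seen.

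**Figure D3:**
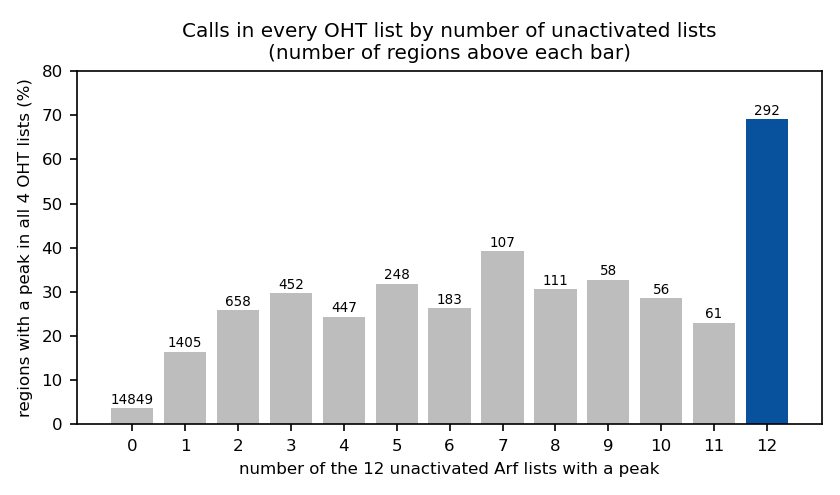
Percent of merged regions called in all 4 OHT lists (y axis) by the number of the 12 unactivated Arf lists with a peak (x axis), with the number of regions above each bar. Bars from 2 to 11 lists lie between 23.0% and 39.3%, and the basal regions at 12 lists reach 69.2%.

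Basal regions called in every OHT list had higher median widths in Arf cells than the others. The 202 regions in all 4 OHT lists had a median width of 1098 bp in unactivated tumour 5 and 418 bp in unactivated tumours 6 and 7, taking the mean over lists for each region. For the other 90 the values were 942 and 227 bp. In doxorubicin lists the medians were 1572.5 and 1372 bp. These are descriptions over regions that share libraries.

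With EtOH, few basal regions had a peak, and tumour 1 supplied most of them. At least 1 EtOH list held 55 basal regions (18.8%), beside 4.74% of all regions and 16% of activation-shared regions, so the share was near that of other regions shared on activation. The sets differed more at higher counts, with 7.88% of basal and 4.36% of activation-shared regions in at least 2 EtOH lists, and 5.14% against 1.13% in at least 3. Of the 55, 30 were called in EtOH tumour 1 alone, 6 in tumours 1 and 3, 4 in tumours 1, 2 and 3, and 9 in all 4. The difference from activation-shared regions was 17.4, 1.43, -3.93 and -1.55 points in tumours 1 to 4, with a mean of 3.35 and an exact sign-change p of 0.875 (n = 4). Basal regions made up 70.3% of the regions in the EtOH list of tumour 1, the shortest list, and 8.54%, 3.68% and 4.17% of those in tumours 2, 3 and 4.

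EtOH peaks of basal regions nearly always had an OHT peak in the same tumour. This held for 52 of 52 in tumour 1, 13 of 14 in tumour 2, 23 of 23 in tumour 3 and 12 of 13 in tumour 4. Over all basal regions, with or without an EtOH peak, the OHT lists of tumours 1 to 4 held 99.3%, 84.9%, 92.1% and 69.9%. Of the 55 regions with an EtOH peak, 50 (90.9%) were called in all 4 OHT lists, and of the 237 without, 152 (64.1%). The same shares were not computed for other regions, so none of this is particular to basal regions as far as known.

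Single regions show these patterns in the lists themselves. The widest basal region lay at chr17:39979743-39985974 and ranked first of the 292 over the 10 OHT, doxorubicin and (-)-Nutlin lists. Its OHT peaks were 4100, 3253, 6069 and 4015 bp wide in tumours 1 to 4, and its doxorubicin peaks 6111, 6056 and 6232 bp in tumours 5 to 7. In EtOH lists the same region was broken into 9, 7, 14 and 19 short peaks, of which the widest were 145, 142, 749 and 246 bp. It was the most fragmented basal region in each of the 8 unactivated lists of tumours 6 and 7 too, with 8 to 14 peaks. No filter for repeats or high background was applied here, and whether the deposited lists had been filtered is not known. The nature of this region as a p53 site was not tested.

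The third widest region, at chr8:23543292-23546213, had a peak in every Arf and OHT list and in 0 EtOH lists. Its peaks were 2302, 1917, 2269 and 1315 bp wide in the OHT lists of tumours 1 to 4. They were 2441, 2439 and 2922 bp with doxorubicin and 2303, 1876 and 2019 bp with (-)-Nutlin in tumours 5 to 7. Without activation they ran from 1537 to 1929 bp in tumour 5 (median 1617 bp), below both activated values of that tumour in lists of the same kind. In the narrow lists of tumours 6 and 7 they ran from 759 to 1038 bp (median 903.5 bp). In the map of its peaks the widest unactivated intervals of tumours 6 and 7 lay to the right of the centre of the activated ones and those of tumour 5 crossed it. Over the 18 Arf lists the median distance of the midpoint from that centre was 388 bp.

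A region at chr1:156902108-156907064 was wide without activation too. Its unactivated peaks measured 2401 to 3074 bp in tumour 5 (median 2527.5 bp) and 1763 to 2165 bp in tumours 6 and 7 (median 1855.5 bp). With activation they measured 1831 to 2893 bp in the 6 lists (median 2153 bp). In tumour 5, where list kinds match, the peaks of 2193 bp with doxorubicin and 1953 bp with (-)-Nutlin lay below every unactivated one. OHT peaks of 1968, 1791, 1834 and 1288 bp stood against EtOH peaks of 1010, 596, 767 and 747 bp in tumours 1 to 4. OHT exceeded EtOH in each tumour, across the list kinds. Of the 10 widest regions, those at chr7:16892674-16895642 and at chr18:35687461-35690806 also kept peaks above 1000 bp in all 12 unactivated lists, with lowest values of 1284 and 1130 bp.

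**Figure D4:**
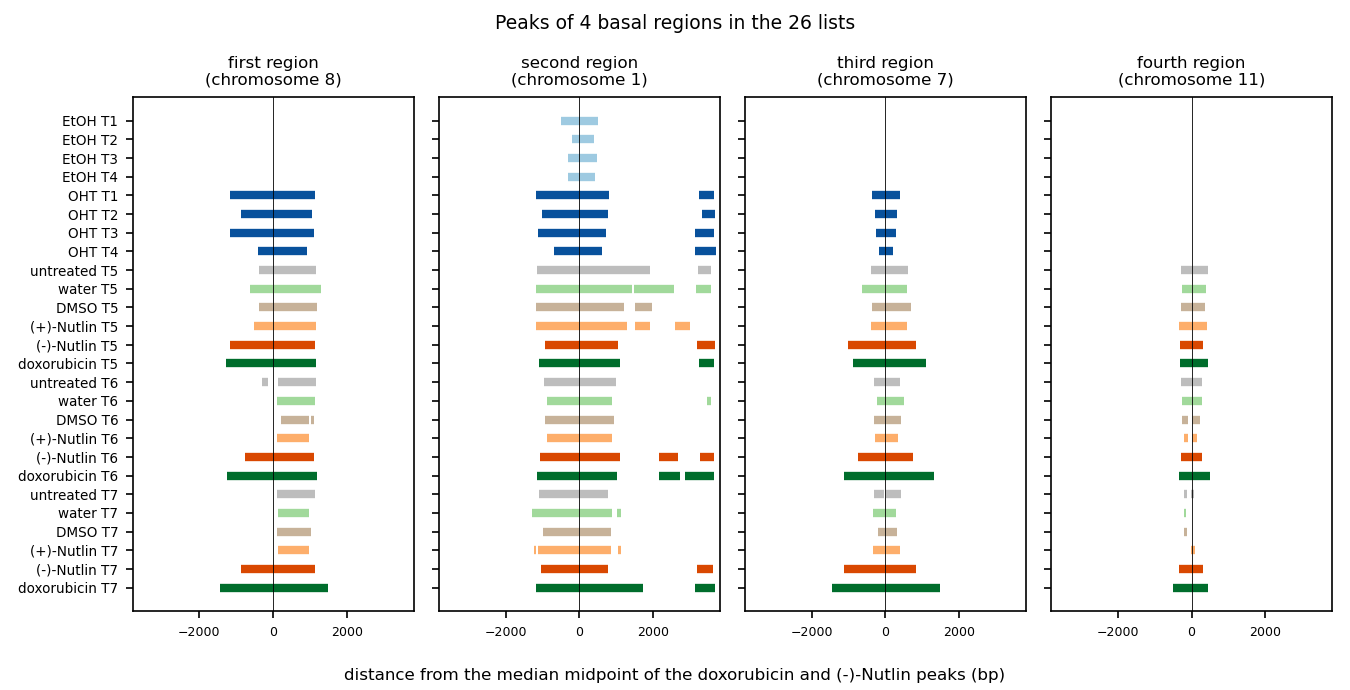
Peaks of 4 basal regions in each of the 26 lists, drawn to scale against the median midpoint of the widest peaks in the 6 doxorubicin and (-)-Nutlin lists (x axis, bp). From left to right they are the region without EtOH peaks on chromosome 8, the region called in all 26 lists on chromosome 1, the region on chromosome 7 with the largest width difference between OHT and activated Arf lists, and the region on chromosome 11 called in 0 OHT lists.

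The other regions among the 10 widest were at chr4:43986223-43990573, at chr8:4610060-4613817, at chr11:6425970-6429051, at chr6:128681769-128684170 and at chr19:44326969-44329957. Each was called in all 4 OHT lists. In tumour 5 their unactivated peaks measured 1580 to 3758 bp. In the narrow unactivated lists of tumours 6 and 7 they measured 450 to 877 bp, and in the wide activated lists of those tumours 1585 to 3537 bp.

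A peak was called in all 26 lists in 9 basal regions. All 4 EtOH lists held these 9 (3.08%), beside 11 of all merged regions (0.0581%) and 2 activation-shared regions (0.0686%). They were the widest region on chromosome 17, those named above on chromosomes 1, 7, 11 and 19, the second one named on chromosome 8, and 3 more. The first of these lay at chr2:75605181-75607199, with EtOH peaks of 828, 107, 690 and 99 bp and OHT peaks of 1332, 1228, 1061 and 1023 bp in tumours 1 to 4. The second lay at chr8:124356061-124357110 and measured 587 to 968 bp in the 12 unactivated lists, 631 to 913 bp in the 6 activated ones and 661 to 970 bp in the OHT lists. Its EtOH peaks were narrower, at 264, 212, 378 and 280 bp. The third, at chr11:108872800-108873655, was of modest width, at a mean percentile of 74.8. Its OHT peaks of 624, 478, 551 and 553 bp still lay above the median peak of each list (443, 456, 481 and 450.5 bp). The EtOH peaks of this region, at 140, 135, 370 and 258 bp, also lay above the list medians of 105.5, 68, 72 and 75 bp.

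At the other extreme, 1 basal region had no OHT peak at all. It lay at chr11:106998616-106999615. In tumour 5 its unactivated peaks measured 710, 630, 650 and 757 bp in untreated, water, DMSO and (+)-Nutlin cells, close to 749 bp with doxorubicin and 600 bp with (-)-Nutlin. In tumour 6 they measured 565, 527, 206 and 141 bp and in tumour 7 82, 52, 68 and 117 bp, against 847 and 955 bp with doxorubicin and 566 and 658 bp with (-)-Nutlin. Unactivated lists of tumours 6 and 7 are narrow and activated ones wide, so only tumour 5 compares lists of the same kind, and there the values overlapped. Neither OHT nor EtOH lists had a peak in this region.

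Another 14 basal regions were called in 1 OHT list. Of the 9 with the lowest mean width percentile among them, 8 had their peak in tumour 1, at 334 to 473 bp, in a list with a smallest peak of 326 bp and a median of 443 bp. Examples are the regions at chr6:76328892-76330225, at chr5:8972390-8973935 and at chr14:114502100-114502993. The ninth, at chr2:120438312-120439790, had its peak in tumour 2, at 407 bp. In the activated Arf lists these 9 regions measured 497 to 1530 bp. The region on chromosome 5 measured 1496, 1431 and 1530 bp with doxorubicin and 1437, 1150 and 1321 bp with (-)-Nutlin in tumours 5 to 7, but 360 bp in its OHT list.

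The median width of basal regions was lower in every OHT list than in any activated Arf list. The median width was 890, 684, 771 and 507 bp in OHT lists of tumours 1 to 4. In doxorubicin lists of tumours 5 to 7 it was 1350.5, 1561 and 1541.5 bp, and in (-)-Nutlin lists 1202, 1016.5 and 1133 bp. The lowest activated Arf median was that of (-)-Nutlin tumour 6, and the highest OHT median that of tumour 1. Over the 202 basal regions in all 10 lists, with doxorubicin and (-)-Nutlin averaged in a tumour, the medians were 998, 737, 860 and 511 bp in KI tumours and 1382, 1312 and 1388 bp in Arf tumours. The log2 difference of -0.85, a ratio of 0.555, had a two-sided exact permutation p of 0.0571, the smallest that 4 against 3 tumours allow. With widths centred on the median of each list it was -0.71, again with an exact permutation p of 0.0571. The rule chose these regions in the Arf tumours that form the wider side, and what that choice adds to the difference was not tested.

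A fit across all 1091 regions present in the 10 lists made 58 calls, of which 41 were at basal regions. Limma with Benjamini-Hochberg adjustment over the 1091 regions, on centred log2 widths, called 41 of 202 basal regions (20.3%) narrower with OHT at an adjusted p under 0.05 and 0 wider. Over all regions 4.86% were called narrower, 0.458% wider and 5.32% in either direction. The median centred log2 difference was -0.71 over basal regions, of which 15 (7.43%) lay above 0, and 0.02 over all 1091, of which 581 (53.3%) lay above 0. The plot of width differences shows most basal regions below the zero line. At an unadjusted limma p under 0.05 there were 126 basal regions of 221 in all.

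The count of calls depended on the tumours in the fit. It was 126 of 202 without tumour 1, with 185 calls over 1440 regions in all, and 75 of 239 without tumour 4, with 165 calls over 1286. It was 0 without tumour 2, 3, 5, 6 or 7, also over all regions. In these 5 fits 97, 112, 115, 71 and 97 basal regions had an unadjusted limma p under 0.05, of 189, 185, 173, 132 and 167 in all. The median centred difference of basal regions in them stayed between -0.77 and -0.66. Without centring, limma called 113 of 202 basal regions, all narrower with OHT, beside 148 calls over all 1091 regions. Arf tumours chose the basal regions, and genotype, time and agent differ together between KI and Arf tumours, so their effects cannot be told apart.

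**Figure D5:**
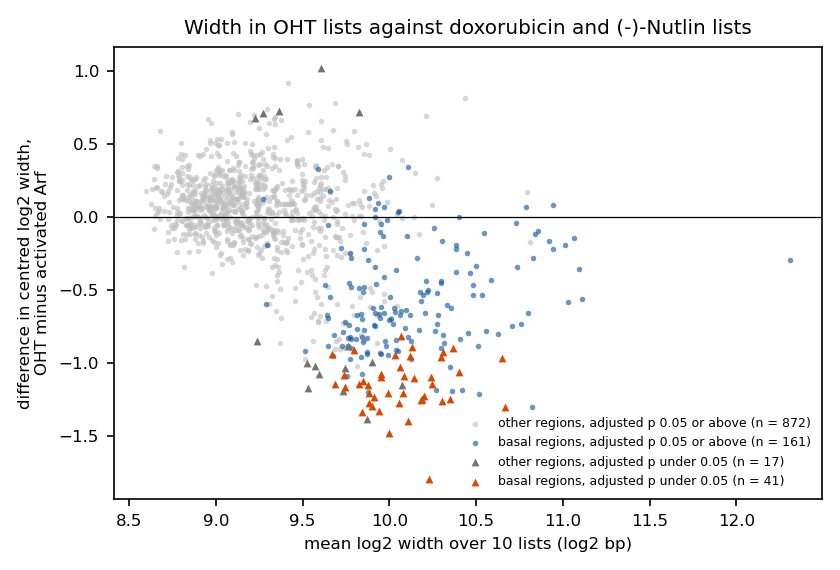
Difference in centred log2 width between OHT and activated Arf lists (y axis) against mean log2 width over the 10 lists (x axis, log2 bp) for 1091 regions. Basal regions are blue or red and other regions grey, and triangles mark an adjusted p under 0.05. The 41 basal regions past the threshold all lie below 0.

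The largest difference among basal regions was at chr7:87098506-87101451. Its OHT peaks were 743, 590, 542 and 356 bp wide in tumours 1 to 4. In tumours 5 to 7 they were 1963, 2429 and 2946 bp with doxorubicin and 1834, 1488 and 1929 bp with (-)-Nutlin. The centred log2 difference was -1.79 with a standard error of 0.27 (limma, Benjamini-Hochberg adjusted p = 0.0329), and OHT was below every activated Arf value in 4 of 4 tumours. Unactivated peaks of the same region ran from 969 to 1205 bp in tumour 5 and from 393 to 731 bp in tumours 6 and 7, so the OHT peaks were no wider than those of unactivated tumour 5.

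The next regions were at chr15:96782194-96784453 and at chr17:27523511-27526047. The first had OHT peaks of 761, 476, 499 and 411 bp and activated Arf peaks of 1317 to 2260 bp, a centred log2 difference of -1.48 (SE 0.27, limma adjusted p = 0.0362). The second had OHT peaks of 947, 548, 705 and 316 bp and activated Arf peaks of 1162 to 2537 bp, a difference of -1.39 (SE 0.32, limma adjusted p = 0.045). OHT and activated Arf values did not overlap in either region, and neither region had an EtOH peak.

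The median width of basal regions was higher with doxorubicin than with (-)-Nutlin in each of the 3 Arf tumours. The median widths of 1350.5, 1561 and 1541.5 bp with doxorubicin and 1202, 1016.5 and 1133 bp with (-)-Nutlin did not overlap. The ratios for tumours 5, 6 and 7 were 1.12, 1.54 and 1.36. The log2 difference of 0.41, a ratio of 1.33, had a two-sided exact permutation p of 0.1 and a paired exact p of 0.25, each the smallest possible with 3 tumours. Lists as a whole shifted as well, by 0.23 in the median log2 difference over the 3206 regions tested. Relative to the list medians the difference at basal regions was 0.16, with an exact permutation p of 0.3.

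Region by region, limma with Benjamini-Hochberg adjustment over the 3206 regions called 0 of 292 basal regions, beside 0.0936% of all regions wider with doxorubicin, 0% narrower and 0.0936% in either direction. The 3 called regions were not basal. At an unadjusted limma p under 0.05 there were 15 basal regions of 485 in all. The median centred difference was 0.13 at basal regions, of which 234 (80.1%) lay above 0, and -0.02 over all regions, of which 1556 (48.5%) lay above 0. With the tumour as a block limma called 34 regions wider (1.06%), 8 narrower (0.25%) and 1.31% in either direction, none of them basal, with 18 basal regions of 493 in all at an unadjusted p under 0.05.

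Without tumour 5, 2 of 292 basal regions passed, both wider with doxorubicin, beside 56 wider and 13 narrower of 3243 regions in all. At chr10:117153278-117156020, doxorubicin peaks of 1403, 2355 and 2280 bp in tumours 5 to 7 stood against (-)-Nutlin peaks of 1130, 975 and 847 bp, a centred log2 difference of 1.10 (limma adjusted p = 0.031) in tumours 6 and 7. On the same chromosome from 59363851 to 59365662, doxorubicin peaks of 983, 1778 and 1578 bp stood against 730, 607 and 758 bp, a difference of 1.05 (limma adjusted p = 0.0418). Doxorubicin was above (-)-Nutlin in 3 of 3 tumours in both regions, and both were named after their values were seen.

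In tumour 5, where all lists were of the wide kind, the width ratio of activated to unactivated lists was smaller at basal regions than at other regions. The median ratio of doxorubicin to water width was 1.17 over the 292 basal regions and 1.48 over the 1852 other regions called in both lists. For (-)-Nutlin to DMSO it was 1.15 against 1.41, and for (-)-Nutlin to its mirror image (+)-Nutlin at the same dose and time 1.06 against 1.30. (+)-Nutlin to DMSO gave 1.09 against 1.11, and DMSO to untreated 0.954 against 0.991. This is 1 tumour without replicates, and its unactivated lists chose the basal regions, so the ratios carry no test.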

How the data were processed

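ChIP-seq with the CM5p antibody gave 26 lists, used as deposited, and 7 input libraries were not used here. Each list holds 3 columns, chromosome, start and end in bp, and these deposited positions are the only measurement. BWA 0.6.2, SAMtools and build mm9 are named per the submitters' processing notes. Which program called the peaks, at what threshold and with which input, is not given in the sources used here. Read depth is unknown, so a missing peak may reflect sensitivity.

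Peaks sharing at least 1 bp were merged in Python 3.11.15 and checked with bedtools 2.31.1. Members, lists and comparisons were chosen with earlier results of these data known. Groups came from the sample titles. Tumour numbers mark cells of the same tumour and so pair the lists. Shares and median log2 widths were compared by two-sided exact permutation or sign-change tests over lists or tumours, written with NumPy 2.4.6. Fisher's exact test was that of SciPy 1.17.1. Widths of single regions were fitted with limma 3.58.1 in R 4.3.3 on log2 bp, centred on each list's median over the regions tested, with Benjamini-Hochberg adjustment over all of them and a threshold of 0.05. The code was tested on simulated data.

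Named regions were the 10 with the highest mean width percentile over the 10 OHT, doxorubicin and (-)-Nutlin lists, those in all 4 EtOH lists, the 10 in the fewest OHT lists (then by lowest percentile) and the 3 with the largest change in each direction in each fit. Gene and sequence tables were of build GRCm38, not mm9, so nearby genes, sequences and the share of regions with a p53 motif were not analysed here. Alternatives were other merging, overlap and list rules, wide peaks alone, covered base pairs, no centring, the tumour as a block and leaving out each tumour.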

Additional observations from a re-analysis of the deposited data

Results flagged for a closer look

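In each group of 4 lists, or 4 values of a named region, a value was singled out when its gap to the nearest other, divided by the range of the group, exceeded 0.829. Of 35 groups of 4, 4 had such a value, and chance alone gives about 1 in 20 groups. Basal regions were 70.3% of the regions of the EtOH list of tumour 1, against 8.54%, 3.68% and 4.17% in tumours 2 to 4. Their median width percentile in that list was 65.5, against 93.6, 97.0 and 92.5. In the OHT list of tumour 4 the median width percentile of basal regions was 65.0, against 93.0, 88.3 and 90.5 in tumours 1 to 3. The basal region on chromosome 18 from 35687461 was 1272 bp wide in that list, against 1886, 1881 and 1789 bp.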

How the results depend on the processing

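Of 88 alternatives over 11 results, 24 moved a value, 5 lost significance and 0 reversed a direction. Many of the others are counts, or exact tests whose smallest p exceeds 0.05, and say nothing about stability. The number of basal regions was 297, 323 and 450 without tumours 5, 6 and 7. With the tumour as a replicate block, OHT minus EtOH stayed 77.8 points with an exact p of 0.125, and leaving out a tumour gave 75.7 to 82.0 points, each with the smallest exact permutation p of 0.1. For doxorubicin against (-)-Nutlin, limma called 42 regions with the tumour as a block, 0 over covered base pairs and 32 without centring, and 0 to 69 with a tumour left out, of which 0 to 2 were basal. For OHT against activated Arf it called 148 regions without centring, of which 113 were basal, and 0 to 185 with a tumour left out, of which 0 to 126 were basal. The cause was not tested. The replicate block changed no other call. Depth is unknown, list kind changes with treatment outside tumour 5, and 3 or 4 tumours bound every exact p. The p53 motif share and target gene lists were not run, as no genome or annotation of build mm9 was at hand.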

Other observations

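Of 272 pairs of neighbouring basal regions on a chromosome, 7 (2.57%) had a gap of 6810 to 7699 bp, beside 0 pairs from 5000 to 6500 bp and 1 pair from 8000 to 9500 bp. Among activation-shared regions the gap from 6500 to 8000 bp held 0.795% of neighbouring pairs, and among all merged regions 2.93%, near the basal share. Gaps from 5000 to 6500 bp held 0.380% of activation-shared pairs and 2.85% of all pairs. For gaps from 8000 to 9500 bp the shares were 0.553% and 2.32%. These windows were set after the values were seen and carry no test. The 7 pairs lay on chromosomes 8, 10, 13, 15, 16 and 18, with 2 on chromosome 13. The pair on chromosome 13 with the shortest gap, of 6810 bp, ran from 117953381 to 117955082 and from 117961893 to 117963323, and both regions were called in 3 OHT lists and 0 EtOH lists. The pair on chromosome 8 combined the region from 124356061 to 124357110, which had a peak in all 26 lists, with a region from 124364785 to 124366015 that was called in 4 OHT lists and 1 EtOH list. The closest basal regions of all lay on chromosome 18 with a gap of 1542 bp, from 35682853 to 35685918 and from 35687461 to 35690806, and both were called in 4 OHT and 3 EtOH lists. The X chromosome held 1 basal region (0.342%), beside 1.81% of all merged regions.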
